A study of Rattus norvegicus with 4 samples.

Results

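Natural killer (NK) and ILC1-like cells were taken from 4 single-cell RNA sequencing libraries of Lewis rat liver, and 1216 of 35901 kept cells (3.39%) met the definition. A cell was kept with at least 200 genes, at least 500 UMIs (unique molecular identifiers, each standing for 1 captured transcript) and at most 20% mitochondrial UMIs. It was a member when at least 3 of 7 genes were detected (Ncr1, Klrb1a, Klre1, Klri2, Klrd1, Nkg7 and Gzma) and no UMI came from Cd3e, Cd3d, Cd3g, Cd79a, Clec4f or Stab2. Cd79a, a B cell gene, is not among the features analysed here, so that condition removed no cell. The libraries are NEVLPcty, a liver perfused outside the body for 4 h at 37 °C with IL-10 and TGF-β added; NEVLP2, perfused for 4 h at 37 °C without them; CS, kept for 4 h at 4 °C; and naive, an untreated liver. Both perfused livers received leukoreduced Lewis red cells in a solution based on William's E medium, to which hydrocortisone, insulin, papaverine, heparin and human albumin had been added, so NEVLP2 and CS differ in all of these as well as in temperature. How the cells were isolated is not stated, the digit in NEVLP2 is not explained, and the study itself was aimed at liver-resident T cells.

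NK cells and group 1 innate lymphoid cells (ILC1) are lymphocytes without rearranged antigen receptors. NK cells circulate and kill target cells through perforin and granzymes, whereas ILC1 stay in tissue, the liver above all, and are known in the mouse for Cxcr6, Il7r, Cd200r1, Tnfsf10 and low levels of Ly49 receptors. Ly49 receptors, in the rat a large family of lectin-like genes in the NK gene complex, bind class I MHC molecules; some inhibit the cell and others activate it. Il2ra encodes the high-affinity subunit of the IL-2 receptor, Xcl1 and Ccl1 are chemokines released by activated lymphocytes, and Cd7 is a surface protein of early and activated lymphoid cells.

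The members numbered 439 in NEVLPcty, 339 in NEVLP2, 258 in CS and 180 in naive, with 1902791, 1902989, 1212275 and 1609356 UMIs in the same order. Their median UMIs per cell were 3924, 4696, 3735 and 8778.5, so the naive members were the deepest. The naive library also stood apart as a whole, with 3920 deposited barcodes against 10646 to 11763 in the others, and 13.9% of them over the mitochondrial limit against 1.11 to 4.28%. Pairs of libraries shared 11 to 35 barcodes. Each group is 1 library, so no test between groups was possible, and animal, preparation and treatment cannot be told apart. Levels are the summed UMIs of a gene per 1000000 summed UMIs of the members (CPM), and all intervals are 95% intervals that cover counting error only.

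Several Ly49 genes share a stretch of bases in their promoters. The 30-base stretches shown here lie just upstream of the start sites of 5 Ly49 genes that carried most of the Ly49 counts and of Ly49i2, which had 0 counts. Capitals mark TCAAGAGGAGGNGCAGAA, the longest stretch that these 6 promoters share with at most 1 variable base; the genes were picked after their promoters had been read. All are from RefSeq, build GRCr8, chromosome 4, minus strand, and are written 5′ to 3′.

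Ly49s5: ctttggTCAAGAGGAGGGGCAGAAagttat

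Ly49s6: ctttggTCAAGAGGAGGAGCAGAAagttat

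Ly49s7: ctttggTCAAGAGGAGGGGCAGAAgatctt

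Klra5: gtttggTCAAGAGGAGGGGCAGAAaatcat

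Klra22: ctttgtTCAAGAGGAGGGGCAGAAaatcat

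Ly49i2: gtttggTCAAGAGGAGGGGCAGAAaatcat

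They lie at chr4:165645531-165645560 (Ly49s5), chr4:165790136-165790165 (Ly49s6), chr4:166511344-166511373 (Ly49s7), chr4:166554894-166554923 (Klra5), chr4:165743059-165743088 (Klra22) and chr4:166180711-166180740 (Ly49i2). The windows were placed on the shared stretch, so high identity was built in. In every pair at least 25 of the 30 bases were identical, and Klra5 and Ly49i2 were identical over all 30. On both strands, 9 of 33469 RefSeq promoters of 300 bases (0.0269%) held the stretch; 6 of them are these, and the others belong to Ly49i5, Ly49s8 and LOC124459649. Of 14 Ly49 features, 13 matched a promoter, and only 6 of the 13 promoters held the stretch. The windows lie upstream of the start sites, and the transcripts themselves were not compared. How the deposited counting shared out reads that fit several copies is not stated, so the split between the Ly49 genes may be less firm than their sum.

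The members carried NK genes that the definition did not use. Prf1, which encodes perforin, was detected in 95.4% of NEVLPcty members, 96.8% in NEVLP2, 96.1% in CS and 96.1% in naive. Il2rb, the IL-2 and IL-15 receptor subunit of NK cells, stood at 709.5, 595.9, 1439.4 and 1161.3 CPM in members of NEVLPcty, NEVLP2, CS and naive, against 8.34, 30.4, 25.4 and 41.2 CPM in all other kept cells. Tbx21, the transcription factor T-bet shared by NK cells and ILC1, stood at 209.7, 224.4, 305.2 and 285.8 CPM, while Eomes, which marks NK cells in the mouse, was low, at 6.83, 8.41, 23.1 and 16.8 CPM. Both are levels in CPM, which do not correct for how well each gene is captured. Members thus carried NK genes in all 4 libraries, and the values do not by themselves divide them into NK cells and ILC1.

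The members were chosen by the detection of 7 genes and the absence of the excluded ones, so the values of these genes only describe them. Ncr1, the activating receptor NKp46, differed most in detection, at 43.1% of NEVLPcty members and 47.5% of NEVLP2 members, against 80.6% in CS and 87.2% in naive. With cells thinned to 2000 UMIs, which here and below leaves out the shallower ones (107, 98, 82 and 13 members in NEVLPcty, NEVLP2, CS and naive), these shares were 25, 32.4, 67.6 and 55.1%. Klrb1a, a lectin-like receptor, was found in 97.3, 92.3, 96.9 and 98.3% of members, and Gzma, granzyme A, in 96.8, 95.9, 93.8 and 87.8%, in the order NEVLPcty, NEVLP2, CS and naive. Members with exactly 3 of the genes numbered 64, 71, 35 and 8, and cells just outside, with 2 genes and none of the excluded ones, 62, 146, 50 and 32. Prf1 stood at 1480.6, 2479.2, 1250.9 and 150.2 CPM in the cells with 3 genes and at 185.8, 96.6, 98.5 and 8.67 CPM in those with 2. A further 83, 120, 148 and 68 cells had at least 3 of the genes but also a UMI of an excluded gene.

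Transcripts of other cell types were present in the members at low levels. Hepatocyte markers summed to 733.1 CPM in NEVLPcty members, 1845.0 in NEVLP2, 999.8 in CS and 517.6 in naive, with none of the 6 at 0, against 4643.8, 7682.9, 5642.9 and 18592.4 CPM in the other kept cells. Monocyte and macrophage markers summed to 186.0, 477.7, 505.7 and 246.7 CPM, Kupffer cell markers to 35.2, 109.8, 179.8 and 13.0 CPM, and sinusoidal endothelial markers to 247.5, 221.2, 268.1 and 0.621 CPM. Red cell markers stood between 23.1 and 93.8 CPM, dendritic cell markers between 7.46 and 34.6, B cell markers between 1.05 and 31.3, stellate cell markers between 0 and 14.0, mast cell and basophil markers between 0 and 2.47 and neutrophil markers between 0.526 and 1.58. The T cell list stood at 994.9, 1092.5, 1474.1 and 1450.3 CPM, most of it from Lck and Cd8a. In each library 4 or 5 of its 9 measured genes were at 0, among them Cd3d, Cd3e and Cd3g, which the definition sets to 0. Clec4f on the Kupffer cell list and Stab2 on the sinusoidal endothelial list are likewise at 0 by definition. Cd8a, which rat NK cells are known to express, was detected in 70.6, 66.4, 73.6 and 86.1% of members. Markers of ILC2 and ILC3, the other innate lymphoid groups, summed to 174.5, 84.1, 99.8 and 96.3 CPM, with 1 to 4 of 6 at 0.

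As a share of all kept cells the members made up 3.78% in NEVLPcty (3.44 to 4.14%), 3.33% in NEVLP2 (2.99 to 3.69%), 2.39% in CS (2.11 to 2.70%) and 5.45% in naive (4.70 to 6.28%). Among lymphoid cells alone the order was different. Members were 76.3% of members, T cells and B cells together in NEVLPcty (72.7 to 79.8%), 58.8% in NEVLP2 (54.6 to 62.8%), 39.7% in CS (35.9 to 43.6%) and 30.0% in naive (26.4 to 33.8%). T cells taken by transcripts numbered 95, 168, 136 and 307 in NEVLPcty, NEVLP2, CS and naive, and B cells 41, 71, 258 and 113. The high lymphoid share in NEVLPcty thus stood beside few T and B cells. With cells of all depths counted, no interval of the lymphoid share overlapped another. Fewer than 2000 UMIs were held by 107, 98, 82 and 13 members in NEVLPcty, NEVLP2, CS and naive. T cells under that depth numbered 1, 2, 6 and 3, and B cells 1, 3, 9 and 1, in the same order. The lymphoid shares were not computed at equal depth, so the part of depth in them and in their order was not tested. A share depends on how many cells of every other type entered the library.

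**Figure D1:**
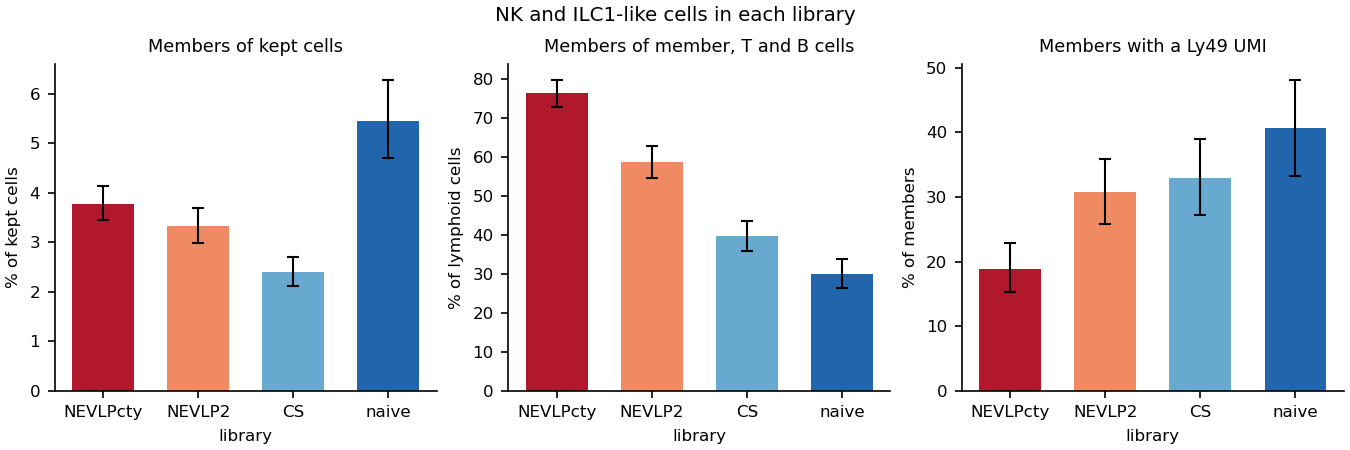
NK and ILC1-like cells per library, as a percent of all kept cells (left), as a percent of members, T cells and B cells (middle), and members with at least 1 Ly49 UMI as a percent of members (right). Cells of all depths are counted, without thinning. Bars are 1 library each and error bars are exact 95% binomial intervals; the middle panel is highest in NEVLPcty at 76.3% and lowest in naive at 30.0%, and the right panel is lowest in NEVLPcty at 18.9% and highest in naive at 40.6%.

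At least 1 Ly49 UMI was found in 83 of 439 NEVLPcty members (18.9%, 15.3 to 22.9%), 104 of 339 NEVLP2 members (30.7%, 25.8 to 35.9%), 85 of 258 CS members (32.9%, 27.2 to 39.0%) and 73 of 180 naive members (40.6%, 33.3 to 48.1%). Thinned to 2000 UMIs per cell, the shares were 15.4, 26.6, 34.1 and 36.5%. B cells, which should lack these genes, gave 4.88, 4.23, 6.59 and 7.96% unthinned and 0, 1.47, 1.61 and 4.46% thinned, at median depths of 5295, 4755, 4512.5 and 5925 UMIs. T cells gave 22.1, 31.5, 17.6 and 21.5%, close to the members in both perfused livers. NEVLPcty was lowest among members, and its interval did not overlap those of the other libraries.

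Of the 14 Ly49 features, 10 had counts in members, and Ly49i2, Ly49si2, Ly49si3 and Ly49i7 had 0. Together they gave 189.2 CPM in NEVLPcty, 446.1 in NEVLP2, 466.9 in CS and 714.0 in naive. The sum was 2.36-fold lower in NEVLPcty than in NEVLP2 (2.08 to 2.67), 1.60-fold lower in NEVLP2 than in naive (1.46 to 1.75) and 1.53-fold lower in CS than in naive (1.38 to 1.69). NEVLP2 and CS were indistinguishable by counting error, with a ratio of 0.956 (0.858 to 1.06). Ly49s6, the gene with most counts, stood at 45.7, 99.3, 136.1 and 215.0 CPM in NEVLPcty, NEVLP2, CS and naive, and Ly49s5 at 60.4, 109.3, 91.6 and 177.1. In rat gene names the s marks a stimulatory and the i an inhibitory receptor. Ly49s7 did not follow that order, at 39.9, 111.4, 94.0 and 87.6 CPM, and Klra5 stood at 23.1, 60.4, 56.9 and 31.1 CPM. Klra22 and Ly49i4 stood out in naive, at 84.5 and 67.7 CPM, against 2.63 to 17.9 and 2.63 to 17.3 CPM in the other libraries. Positive cells often held several of the genes: at least 2 in 53% of positive NEVLPcty members, 62.5% in NEVLP2, 51.8% in CS and 76.7% in naive, and up to 7 in 1 cell. The median was 3 Ly49 UMIs per positive cell in NEVLPcty, 5 in NEVLP2, 3 in CS and 13 in naive.

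The 4 genes Il2ra, Xcl1, Ccl1 and Cd7 did not share 1 pattern across the libraries. Il2ra stood at 304.8 CPM in NEVLPcty, 305.8 in NEVLP2, 93.2 in CS and 55.9 in naive. Both perfused livers were therefore high: NEVLP2 was 5.47-fold higher than naive (4.37 to 6.91) and 3.28-fold higher than CS (2.68 to 4.05), whereas NEVLPcty over NEVLP2 was 0.997 (0.887 to 1.12). Il2ra was detected in 48.5, 40.7, 25.6 and 24.4% of members (thinned 37.0, 27.4, 13.1 and 8.98%), against 0, 2.82, 0.388 and 0% of B cells. Cd7 went another way, at 1415.3 CPM in NEVLPcty, 548.1 in NEVLP2, 1615.1 in CS and 1267.6 in naive. NEVLP2 was the low library, 2.31-fold below naive (2.15 to 2.49) and 2.95-fold below CS (2.73 to 3.18), and NEVLPcty was 2.58-fold above NEVLP2 (2.40 to 2.78). Thinned detection of Cd7 was 66.0, 32.0, 52.8 and 47.3%, unthinned 73.3, 46.3, 64.3 and 55.6%, with 9.76, 11.3, 9.69 and 8.85% of B cells.

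Xcl1 differed least, at 1327.0 CPM in NEVLPcty, 1794.5 in NEVLP2, 1507.9 in CS and 2011.4 in naive, and was detected in 61.3, 54.0, 59.7 and 65.0% of members. Ccl1 stood at 589.1, 1300.6, 32.2 and 328.7 CPM, but few cells made it. Ccl1 UMIs came from 58, 57, 7 and 4 members, and the cell with most held 41.7, 20.8, 56.4 and 97.0% of them, so the naive level is that of 1 cell. By detection Ccl1 was found in 13.2% of NEVLPcty and 16.8% of NEVLP2 members, against 2.71% in CS and 2.22% in naive, and in no B cell. Ccl1 lay mostly with Il2ra: 19.7% of Il2ra-positive and 7.08% of Il2ra-negative members held it in NEVLPcty, and 34.1 and 4.98% in NEVLP2.

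Within the members, Il2ra, Xcl1, Ccl1 and Cd7 each had a lower summed level in Ly49-positive than in Ly49-negative cells of all 4 libraries. These genes were picked with earlier results of these data known, so the values describe the contrast and carry no test. Il2ra stood at 126.9 CPM in Ly49-positive and 358.6 CPM in Ly49-negative cells of NEVLPcty, at 149.4 and 428.5 in NEVLP2, at 28.0 and 144.7 in CS and at 30.2 and 79.1 in naive. It was thus 2.83-fold lower in Ly49-positive cells of NEVLPcty (2.14 to 3.79), 2.87-fold in NEVLP2 (2.35 to 3.52), 5.16-fold in CS (2.98 to 9.58) and 2.62-fold in naive (1.61 to 4.41). Ly49-negative cells were shallower, with median UMIs of 5441 in positive and 3588 in negative cells of NEVLPcty, 7015.5 and 2888 in NEVLP2, 6441 and 2619 in CS, and 9845 and 7983 in naive. The difference in Il2ra was also there at equal depth: thinned to 2000 UMIs, Il2ra was detected in 11.8% of positive and 41.6% of negative cells in NEVLPcty, 12.5 and 32.8% in NEVLP2, 5.0 and 17.2% in CS and 1.64 and 13.2% in naive.

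**Figure D2:**
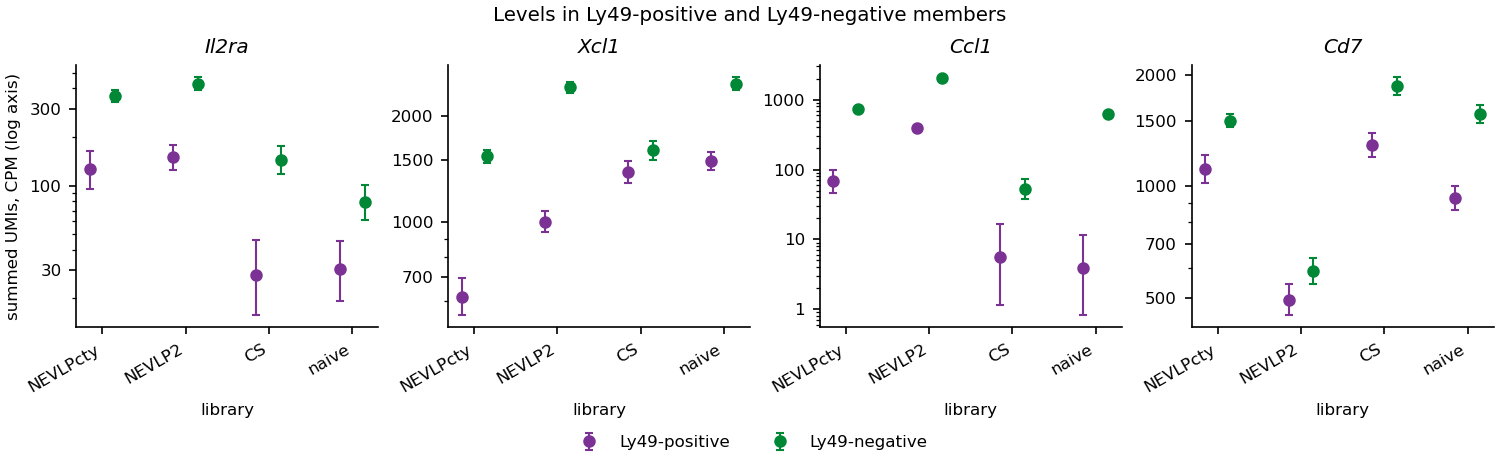
Level (CPM, log axis) of Il2ra, Xcl1, Ccl1 and Cd7 in Ly49-positive (purple, left of each pair) and Ly49-negative members (green) of each library, with exact 95% Poisson intervals for counting error. The Ly49-negative point is the higher of each pair in all 16 pairs, with the closest pair in Xcl1 of CS at 1390.1 and 1601.0 CPM.

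Xcl1 stood at 616.2 CPM in Ly49-positive and 1541.7 in Ly49-negative cells of NEVLPcty, 1004.3 and 2414.3 in NEVLP2, 1390.1 and 1601.0 in CS and 1497.0 and 2474.2 in naive, so the CS pair was close, at 1.15-fold (1.05 to 1.27). Cd7 was 1.35-fold lower in Ly49-positive cells of NEVLPcty, 1.20-fold in NEVLP2, 1.44-fold in CS and 1.69-fold in naive. It was detected in 44.6% of positive and 80.1% of negative cells in NEVLPcty, 35.6 and 51.1% in NEVLP2, 37.6 and 77.5% in CS and 49.3 and 59.8% in naive. The difference in Cd7 was thus larger by detection than by level in NEVLPcty, NEVLP2 and CS, but not in naive. Ccl1 was 11.0-fold lower in Ly49-positive cells of NEVLPcty and 5.19-fold lower in NEVLP2. In CS it had 3 counts in positive and 36 in negative cells (9.49-fold lower, 3.0 to 48.1), and in naive 3 and 526 (ratio 0.00634, 0.00130 to 0.0186), where 1 cell gave nearly all. By detection the Ccl1 difference was smaller than by level. In NEVLPcty 9.64% of positive and 14.0% of negative cells held Ccl1 (thinned 9.80 and 10.7%). In NEVLP2 the shares were 10.6 and 19.6%, and they were closer when thinned, at 12.5 and 14.7%. They were 3.53 and 2.31% in CS and 1.37 and 2.80% in naive, where only 7 and 4 members held Ccl1. A fit over the 4 libraries gave log2 folds of -1.49 for Il2ra (SE 0.15), -3.33 for Ccl1 (SE 0.45), -0.75 for Xcl1 (SE 0.15) and -0.37 for Cd7 (SE 0.09). In members without Cd8a, Cd8b, Cd4 or Cd5 UMIs, which outside naive were shallower than the others, Xcl1 and Cd7 turned the other way, at 0.94 and 0.58. Members that held none of these 4 genes were Ly49-positive in 44.0% of cells in NEVLPcty, 44.5% in NEVLP2, 57.6% in CS and 48.0% in naive. Among members with 3 of the genes the shares were 8.67, 21.7, 23.1 and 18.9%. With 1 gene they were 28.8, 38.2, 39.2 and 47.2%, and with 2 genes 9.52, 16.7, 16.5 and 43.6%, so naive changed little up to 2 genes. All 4 genes were held by 34, 36, 4 and 2 members, of which 4, 8, 1 and 1 were Ly49-positive.

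Beyond those genes, Ly49-positive members had more Gzmk, Gzmb, Klrg1, Lag3 and Cd27 transcripts and fewer of Cxcr6, Rora, Icos, Cd226 and Il4. Of 6779 genes tested outside the Ly49 family, 253 were higher in Ly49-positive members (3.73%) and 187 lower (2.76%), by edgeR's quasi-likelihood test on summed counts with the library as a block and Benjamini-Hochberg adjusted p under 0.05. Of these, 238 of the 253 and 185 of the 187 differed the same way in all 4 libraries. Positive and negative sums come from the same 4 libraries, and each library's cells are 1 liver, so n = 4 pairs.

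Of the ILC1 and residency list, without the 4 genes above, 5 of 15 tested genes were lower and 0 higher (24 genes were listed), with a median log2 fold of -0.67 against -0.01 over all genes. Cxcr6, the chemokine receptor that holds lymphocytes in liver sinusoids in the mouse, was at 36.2 CPM in positive and 125.2 in negative cells of NEVLPcty, 9.56 and 54.4 in NEVLP2, 20.6 and 42.8 in CS and 3.94 and 42.5 in naive (log2 fold -1.89, SE 0.29, edgeR adjusted p = 0.00438). Tnfsf10, the death ligand TRAIL, fell by 1.44 on the log2 scale (SE 0.29, edgeR adjusted p = 0.0142), and Rora, a nuclear receptor of innate lymphoid cells, by 1.00 (SE 0.17, edgeR adjusted p = 0.00599). Ahr, the aryl hydrocarbon receptor, and Rgs1, a regulator of G protein signalling, were also lower in 4 of 4 libraries. Il7r, found in only 8, 14, 5 and 9 members of NEVLPcty, NEVLP2, CS and naive, did not go the same way in all libraries. It was at 9.06 CPM in positive and 10.9 in negative cells of NEVLPcty, 35.9 and 18.8 in NEVLP2, 5.61 and 10.3 in CS and 3.94 and 18.9 in naive. Itga1, the residency integrin, had a log2 fold of -0.77 that did not pass (edgeR adjusted p = 0.0644). Markers of hepatocytes moved the same way, at 543.7 CPM in positive and 790.4 in negative cells of NEVLPcty, 1143.0 and 2395.5 in NEVLP2, 754.8 and 1193.4 in CS and 489.4 and 543.0 in naive, and their part in these results was not tested.

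Of the cytotoxicity list, without Gzma and Nkg7, 4 of 12 tested genes were higher and 1 lower, with a median of 0.18. Gzmk, granzyme K, stood at 5674.8 CPM in positive and 2225.3 in negative cells of NEVLPcty, 6261.2 and 3502.8 in NEVLP2, 4250.7 and 1886.1 in CS and 3761.5 and 2218.0 in naive (log2 fold 1.16, SE 0.09, edgeR adjusted p = 0.000111). Gzmb, granzyme B, rose by 0.82 (SE 0.09, edgeR adjusted p = 0.00109) and Serpinb9, which protects the cell from its own granzyme B, by 0.72 (SE 0.12, edgeR adjusted p = 0.00592). Gzmf passed too, though it was higher in 2 of 4 libraries only. Prf1 had a log2 fold of 0.21 and did not pass (edgeR adjusted p = 0.0509). Of the list of mature, circulating NK cells, 2 of 11 tested genes were higher and 0 lower, with a median of 0.47. Among them was S1pr5, the receptor by which NK cells leave tissue, with a log2 fold of 0.85 close to the threshold (SE 0.22, edgeR adjusted p = 0.0486).

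**Figure D3:**
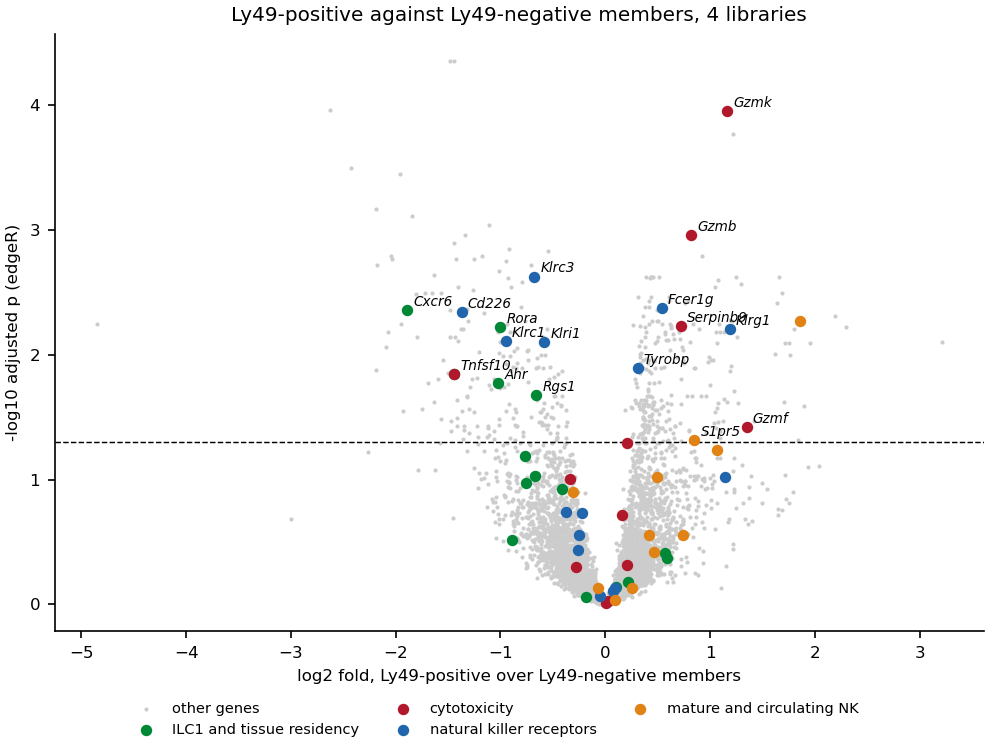
Log2 fold of each gene in Ly49-positive over Ly49-negative members (x axis) against -log10 of the edgeR adjusted p (y axis), from 8 sums of 4 libraries with the library as a block. Ly49 genes, the 7 defining genes and Il2ra, Xcl1, Ccl1 and Cd7 are left out; coloured points are 4 gene lists, names mark some of the listed genes past the dashed line at an adjusted p of 0.05 (Tnfsf10, which is on both lists, is drawn with cytotoxicity), and the ILC1 and residency genes past it all lie on the left, among them Cxcr6 at -1.89.

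NK receptors and adaptors divided. Higher in Ly49-positive members were Klrg1, an inhibitory receptor of mature NK cells (log2 fold 1.19, SE 0.20, edgeR adjusted p = 0.00621), and the signalling adaptors Fcer1g, of Fc receptors, and Tyrobp (DAP12), to which activating Ly49 receptors couple (log2 folds 0.54 and 0.31). Monocyte and macrophage markers were higher in Ly49-positive members too (values below), and the part of myeloid transcripts in these 2 adaptor folds was not tested. Lower were Cd226, the activating receptor DNAM-1 (-1.37, SE 0.21, edgeR adjusted p = 0.00451), and the NKG2 family genes Klrc1 and Klrc3 and the related Klri1, at -0.95, -0.68 and -0.58. In all, 3 of 15 tested receptor genes outside the defining ones were higher and 4 lower. Among costimulatory and checkpoint genes, Lag3 (1.66, SE 0.22) and Cd27 (1.69, SE 0.24) were higher and Icos lower (-1.63, SE 0.21), out of 8 tested. Lag3, an inhibitory receptor for class II MHC, stood at 385.1 CPM in positive and 61.6 in negative cells of NEVLPcty, 307.3 and 138.8 in NEVLP2, 341.9 and 128.5 in CS and 278.1 and 135.7 in naive.

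Cytokine genes divided as well. Il4, the type 2 cytokine, was the gene with the lowest log2 fold after Ccl1 among those with an annotated name, at 29.5 CPM in positive and 149.9 in negative cells of NEVLPcty, 5.98 and 29.1 in NEVLP2, 14.9 and 159.5 in CS and 19.7 and 141.7 in naive (-2.63, SE 0.21, edgeR adjusted p = 0.000109). Lta, lymphotoxin alpha, was lower too (-1.80, SE 0.31, edgeR adjusted p = 0.00721), while Ccl5 and Ccl4, chemokines of cytotoxic lymphocytes, were higher in 3 of 4 libraries, with log2 folds of 0.27 and 0.48. Bcl2, the survival factor, was lower by 0.80 (SE 0.12, edgeR adjusted p = 0.00414), and Il15ra, which presents IL-15, by 1.36. Tnfrsf25, the receptor of TL1A known from ILC and T cells, was at -2.19 (SE 0.23, edgeR adjusted p = 0.000674), with 27.2 CPM in positive and 106.1 in negative cells of NEVLPcty, 14.3 and 93.8 in NEVLP2, 16.8 and 56.1 in CS and 7.87 and 57.8 in naive.

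The genes with the largest folds were not all from the lists. Higher with Ly49 were Fcrl6, an Fc receptor-like molecule of cytotoxic lymphocytes (log2 fold 3.21, SE 0.57, edgeR adjusted p = 0.00791), Dgkg, a diacylglycerol kinase (2.19, SE 0.34, edgeR adjusted p = 0.00492), Sulf1, Mal, Cpne4 and Htra3. Fcrl6 rested on 9, 20, 32 and 44 counts from 5, 8, 7 and 6 cells in NEVLPcty, NEVLP2, CS and naive, with 40.0% or more from 1 cell in each library. Lower were Espn, an actin-bundling protein (-2.43, SE 0.23, edgeR adjusted p = 0.000320), Asb2, a subunit of a ubiquitin ligase (-1.96, SE 0.19, edgeR adjusted p = 0.000352), Gpr55, Kcns1, Traf3ip2, Tspyl4, Podnl1 and Wls. Csf1r, Ncf4 and Lgals1, genes best known from myeloid cells, were higher in Ly49-positive members, and so were monocyte and macrophage markers together, at 450.8 CPM in positive and 106.1 in negative cells of NEVLPcty, 523.7 and 441.6 in NEVLP2, 562.4 and 460.8 in CS and 472.3 and 43.7 in naive. Csf1r rested on 27, 32, 53 and 19 counts in the 4 libraries, with up to 47.4% from 1 cell. Without the cells of highest doublet score, Ncf4 (edgeR adjusted p = 0.0530) and Lgals1 (edgeR adjusted p = 0.114) did not pass, and the part of myeloid transcripts in these genes was not tested. AABR07060872.1, at -4.85, had 97.5% of its NEVLP2 counts in 1 cell and was at -0.91 without the cells of highest doublet score (edgeR adjusted p = 0.377).

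The contrast held fewer genes at equal depth, and none passed without the library block (318 at an unadjusted p under 0.05) or in a small subset. With cells thinned to 2000 UMIs, 74 of 2658 tested genes were higher and 53 lower, Gzmk, Gzmb, Lag3, Cd27, Klrg1, Rora and Cd226 among them. In the 128, 108, 67 and 22 members without any UMI of Cd8a, Cd8b, Cd4 or Cd5 (20, 21, 13 and 10 of them Ly49-positive), 0 of 2205 genes passed edgeR's test, with 286 at an unadjusted p under 0.05. Their median UMIs were 2154.5, 1673.5, 1254.0 and 8606.5 in NEVLPcty, NEVLP2, CS and naive, against 4836.0, 6040.0, 4695.0 and 8839.5 in the remaining members. Outside naive this subset was thus shallow, and the part of depth in its result was not tested.

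CS members differed from naive ones mainly by small amounts. Of 8096 genes with at least 20 counts in the pair, 567 (7.0%) stood above naive by 2-fold or more and 173 (2.14%) below it, and the median log2 ratio was 0.14. Of the called genes 76.6% were higher; scaled by the median of gene ratios instead, 65.7% were (446 higher and 233 lower). None of 14 measured cytotoxicity genes passed 2-fold, and Prf1 stood at 5050.8 CPM in CS and 3015.5 in naive, a ratio of 1.67 (1.61 to 1.74). Ifng, the interferon that NK cells make, was 7.25-fold lower in CS (3.5 to 17.4), at 6.6 CPM in CS and 47.8 in naive. It was detected in 2.28% of NEVLPcty, 3.24% of NEVLP2, 2.33% of CS and 22.2% of naive members (thinned 1.20, 1.66, 2.27 and 8.98%). Naive was thus the high library for Ifng, by less at equal depth. Ncr3, the activating receptor NKp30, was at 22.3 CPM in CS and 3.73 in naive (5.97, 2.42 to 17.7), with 29.6% of the CS counts from 1 cell. Hist1h1e, a linker histone gene, stood at 497.4 CPM in CS and 162.8 in naive, Hist1h1c at 171.6 and 65.2, and Hist1h1d at 94.9 and 32.3. Of the family, Hist1h1a was at 45.4 CPM in CS and 14.9 in naive and Hist1h1b at 71.8 and 47.2; these last 2 were named after their values were seen. Nr4a3, an immediate early nuclear receptor, was at 105.6 CPM in CS and 38.5 in naive, and Birc3, an inhibitor of apoptosis, at 48.7 and 15.5. Among the lowest in CS were ribosomal protein genes with many near copies, of which Rpl39 was at 188.1 CPM in CS and 766.1 in naive and Rpl26 at 1035.2 and 3081.4. Of 20 measured interferon-response genes 6 stood 2-fold or more above naive and 0 below it, and all 6 were at higher CPM in the other kept cells of CS, as for Isg15 at 174.9 CPM in CS members and 419.7 in the other CS cells.

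Perfusion without cytokines went with a different set of levels. Between NEVLP2 and naive, 1192 of 8357 genes (14.3%) were at least 2-fold higher in NEVLP2 and 1376 (16.5%) lower; between NEVLP2 and CS, 763 of 8315 (9.18%) were higher and 1591 (19.1%) lower. Both comparisons use the NEVLP2 library, so they are not independent. NF-kB target genes were higher as a group: 17 of 17 measured passed 2-fold over naive (median log2 ratio 2.13, against -0.06 over all genes) and 16 of 17 over CS (median 2.47, against -0.19). Birc3 stood at 356.8 CPM in NEVLP2 and 15.5 in naive, a 23.0-fold difference (15.4 to 35.7), and Bcl3, a nuclear cofactor of NF-kB, at 259.1 and 16.2 (16.0-fold, 10.8 to 24.8). The inhibitor Nfkbie was at 197.1 CPM in NEVLP2 and 18.6 in naive, and the subunit Nfkb2 at 295.3 and 35.4. Nfkbia was at 1980.6 CPM in NEVLP2 members, 343.2 in CS and 492.1 in naive, and at 3383.3, 817.7 and 574.0 CPM in the other kept cells of those libraries, so it was high in other cells too.

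Of the cytotoxicity list, 3 of 14 measured genes were at least 2-fold higher in NEVLP2 than in naive and 2 of 14 than in CS, with 0 lower in either. Over all genes 14.3% were higher and 16.5% lower than in naive, and 9.18% higher and 19.1% lower than in CS. The counts of higher genes are near those shares and say nothing about the list. Gzmb stood at 707.4 CPM in NEVLPcty, 7236.5 in NEVLP2, 1411.4 in CS and 1052.0 in naive, so NEVLP2 was 6.88-fold above naive (6.54 to 7.24) and 5.13-fold above CS (4.88 to 5.39). In cells rather than UMIs, 49.4, 86.4, 73.6 and 76.1% held it (thinned 41.9, 80.9, 75.0 and 61.1%), against 0, 1.41, 0.775 and 1.77% of B cells. Prf1 was at 8192.9 CPM in NEVLP2, 5050.8 in CS and 3015.5 in naive, and Gzma at 9803.5, 7500.8 and 5095.2. Gzmm, granzyme M, went the other way, at 1995.3 CPM in NEVLP2, 3599.8 in CS and 3663.0 in naive, and Serpinb9 was at 178.1, 331.6 and 241.1 in that order. T cells, by comparison, had 15.4 CPM of Gzmb in NEVLPcty, 496.8 in NEVLP2, 2.73 in CS and 4.96 in naive. Tnfrsf9, the activation-induced receptor 4-1BB, was 30.5-fold higher in NEVLP2 than in naive (22 to 43.5), at 701.0 CPM in NEVLP2, 37.1 in CS and 23.0 in naive, and was detected in 54.6, 6.59 and 6.67% of members (thinned 47.3, 3.98 and 3.59%). B cells of those libraries gave 7.04, 5.81 and 6.19% and Stab2-positive cells, of median depth 6381, 6084.5 and 5839.5 UMIs, 30.3, 0.139 and 0%, so the shares of CS and naive members were at the level of B cells, and Stab2-positive cells of NEVLP2 held the gene too.

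**Figure D4:**
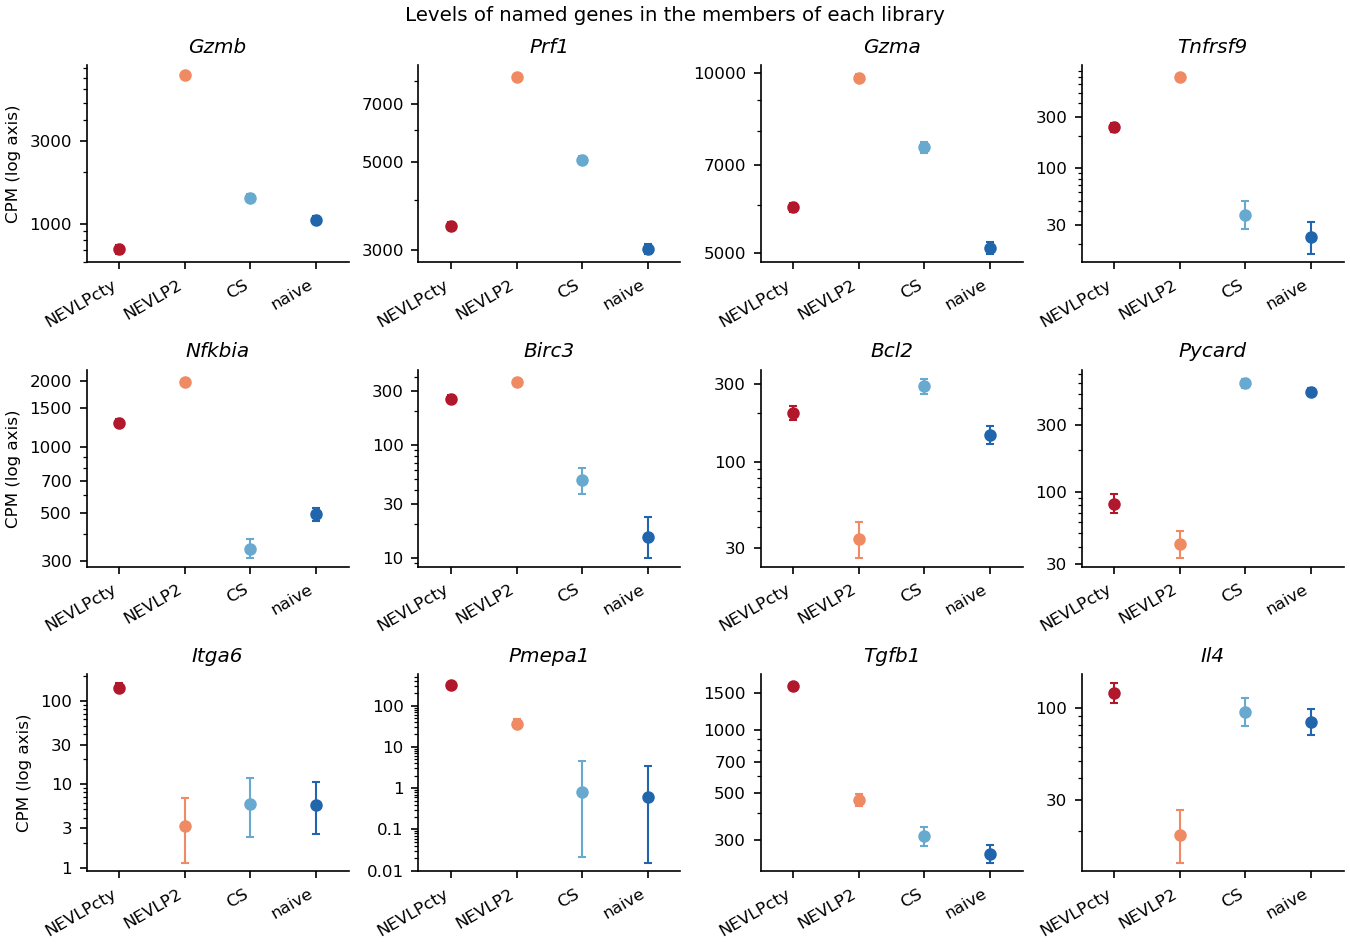
Level (CPM, log axes that differ between panels) of 12 genes in the members of each library, with exact 95% Poisson intervals for counting error. Gzmb, Prf1, Gzma, Tnfrsf9 and Nfkbia are highest in NEVLP2; Bcl2 is lowest there at 33.6 CPM, and Itga6, Pmepa1 and Tgfb1 are highest in NEVLPcty.

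Other receptor and signalling genes were also higher in NEVLP2. Ifngr1, an interferon gamma receptor chain, stood at 788.8 CPM in NEVLP2, 254.1 in CS and 166.5 in naive, Stat3 at 609.6, 292.0 and 192.6, and the IL-21 receptor gene Il21r at 110.9, 57.7 and 23.0. Batf, a transcription factor of activated lymphocytes, was at 161.3 CPM in NEVLP2, 31.3 in CS and 23.0 in naive, and Tnfrsf18, the costimulatory receptor GITR, at 458.8, 202.1 and 195.1. In NEVLPcty, Ifngr1 stood at 1033.7 CPM, Stat3 at 765.2 and Il21r at 135.1, which is 1.31, 1.26 and 1.22 times NEVLP2, close to the median shift of all genes (0.22 on the log2 scale). Tnfrsf18 did not differ from NEVLP2 beyond counting error (ratio 1.06, 0.963 to 1.16), and Batf was lower.

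Among the genes lower in NEVLP2 were Bcl2, Pycard and Hcst. Of the list of mature, circulating NK cells, 3 of 13 measured genes were at least 2-fold lower than in naive, against 16.5% of all genes. That count is near the share of all genes and says nothing about the list. Bcl2 was at 33.6 CPM in NEVLP2, 290.4 in CS and 146.6 in naive, 8.63-fold lower than in CS (6.6 to 11.5), whereas its relatives Bcl2a1, at 1671.6, 863.7 and 664.9 CPM in NEVLP2, CS and naive, and Bcl2l1, at 123.5, 51.1 and 47.2, were highest in NEVLP2. Pycard, the inflammasome adaptor ASC, was at 42.0 CPM in NEVLP2, 600.5 in CS and 518.8 in naive, and in the other kept cells of those libraries at 30.2, 289.0 and 345.7. Hcst, the adaptor DAP10 of activating receptors, was 3.27-fold lower than in naive (2.97 to 3.61), at 291.6 CPM in NEVLP2, 634.3 in CS and 955.0 in naive. Itgam, a maturation integrin, was at 70.9, 209.5 and 195.1 CPM and S1pr5 at 18.9, 60.2 and 50.3 in the same order. Il2rb was 2.42-fold lower in NEVLP2 than in CS (2.24 to 2.61). Among genes of other kinds, Cirbp, a cold-inducible RNA-binding protein, was at 22.1, 80.0 and 92.6 CPM and Tsc22d3, a glucocorticoid target, at 73.0, 247.5 and 300.1.

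Adding IL-10 and TGF-β to the perfusion went with lower cytotoxic and higher TGF-β-responsive genes. Of 8479 genes, 967 (11.4%) were at least 2-fold higher in NEVLPcty than in NEVLP2 and 478 (5.64%) lower, with a median log2 ratio of 0.22. That is 66.9% higher among those called; under median-of-ratios scaling it was 50.1% (623 higher and 621 lower), which moved the median of all genes to 0.02. Gzmb was 10.2-fold lower in NEVLPcty (9.67 to 10.8), and Gzmf, another granzyme, was at 2.63 CPM in NEVLPcty and 98.8 in NEVLP2 (37.6-fold lower, 15.8 to 117.1). Gzmbl3, a granzyme B-like gene, was at 460.4 CPM in NEVLPcty and 1425.1 in NEVLP2, Prf1 at 3441.3 and 8192.9, and Serpinb9 at 75.7 and 178.1. Of the cytotoxicity list, 5 of 14 measured genes (Gzmb, Gzmf, Prf1, Ctsw and Serpinb9) were at least 2-fold lower and 0 higher, with a median log2 ratio of -0.57. The granzyme genes are near copies of each other, so the split of reads between Gzmb, Gzmbl3 and Gzmf is uncertain.

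TGF-β-response genes gave 6 higher and 1 lower of 17 measured, with a median log2 ratio of 0.43. Over all genes 11.4% were higher and 5.64% lower, with a median of 0.22. Pmepa1, a TGF-β-induced inhibitor of the pathway, was at 322.7 CPM in NEVLPcty and 36.8 in NEVLP2 (8.77-fold, 6.84 to 11.4), with 0.825 in CS and 0.621 in naive. Smad7, the inhibitory Smad, was at 403.6 CPM in NEVLPcty and 119.3 in NEVLP2, and Smurf2, its partner ubiquitin ligase, at 87.8 and 35.7. Ski, a repressor of Smads, was at 12.6 CPM in NEVLPcty and 3.15 in NEVLP2. Tgfb1 itself was at 1607.6 CPM in NEVLPcty and 463.0 in NEVLP2 (3.47-fold, 3.22 to 3.75). T cells shared part of this, with Pmepa1 at 320.6 CPM in NEVLPcty and 68.5 in NEVLP2 and Smad7 at 341.9 and 87.8, but Tgfb1 at 551.3 and 507.4.

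Several genes of adhesion and homing were higher in NEVLPcty. Itga6, an integrin subunit that binds laminin, was at 144.5 CPM in NEVLPcty, 3.15 in NEVLP2, 5.77 in CS and 5.59 in naive, so it was high in NEVLPcty alone (45.8-fold over NEVLP2, 20.8 to 126.0). In T cells it was at 34.3 CPM in NEVLPcty, 7.47 in NEVLP2, 32.8 in CS and 25.4 in naive. Cxcr6 stood at 104.6 CPM in NEVLPcty and 34.7 in NEVLP2, Itga1 at 130.3 and 32.1 (in the other kept cells at 301.6 and 82.1), and Gata3, a transcription factor of ILC and T cells, at 172.9 and 59.4. Of the ILC1 and residency list 5 of 21 measured genes were at least 2-fold higher and 3 lower, with a median log2 ratio of 0.49. Over all genes 11.4% were higher and 5.64% lower, with a median of 0.22. The list had genes past 2-fold in both directions, so it did not move as 1 group. Kit, the stem cell factor receptor, was at 65.7 CPM in NEVLPcty and 7.36 in NEVLP2, F2r, a thrombin receptor, 9.21-fold higher in NEVLPcty (6.58 to 13.2), and Dusp2, a phosphatase of activated lymphocytes, at 1211.9 and 224.9. Il4 was at 121.9 CPM in NEVLPcty and 18.9 in NEVLP2, with 95.7 in CS and 83.9 in naive, so NEVLP2 was the low library for it. Bcl2 was likewise 5.92-fold higher in NEVLPcty (4.53 to 7.84), at 199.2 CPM, and Flt3lg, a growth factor gene for dendritic cells and innate lymphocytes, at 69.4 CPM in NEVLPcty and 12.1 in NEVLP2.

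Of the NF-kB list, 0 of 17 genes were at least 2-fold higher in NEVLPcty than in NEVLP2 and 2 lower, with a median log2 ratio of -0.46, beside 11.4% higher and 5.64% lower over all genes. Nfkbia was at 1283.4 CPM in NEVLPcty and Birc3 at 254.9, against 1980.6 and 356.8 in NEVLP2. Of the list of IL-10 and STAT3 responses, 0 of 14 measured were at least 2-fold higher in NEVLPcty and 3 lower, among them Batf, at 55.2 CPM in NEVLPcty and 161.3 in NEVLP2. Tnfrsf9 was 2.94-fold lower in NEVLPcty (2.64 to 3.28) and Cd27 3.20-fold lower (2.1 to 5.0). Interferon-response genes gave 1 higher and 8 lower of 19 measured.

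Gzmb, Gzma and Cd7 are also given within each Ly49 class. The log2 ratio of NEVLPcty over NEVLP2 was -2.88 for Gzmb, -0.79 for Gzma and 1.17 for Cd7 among Ly49-positive members. Among Ly49-negative members it was -3.45 for Gzmb, -0.69 for Gzma and 1.35 for Cd7, against -3.35, -0.72 and 1.37 over all members.

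**Figure D5:**
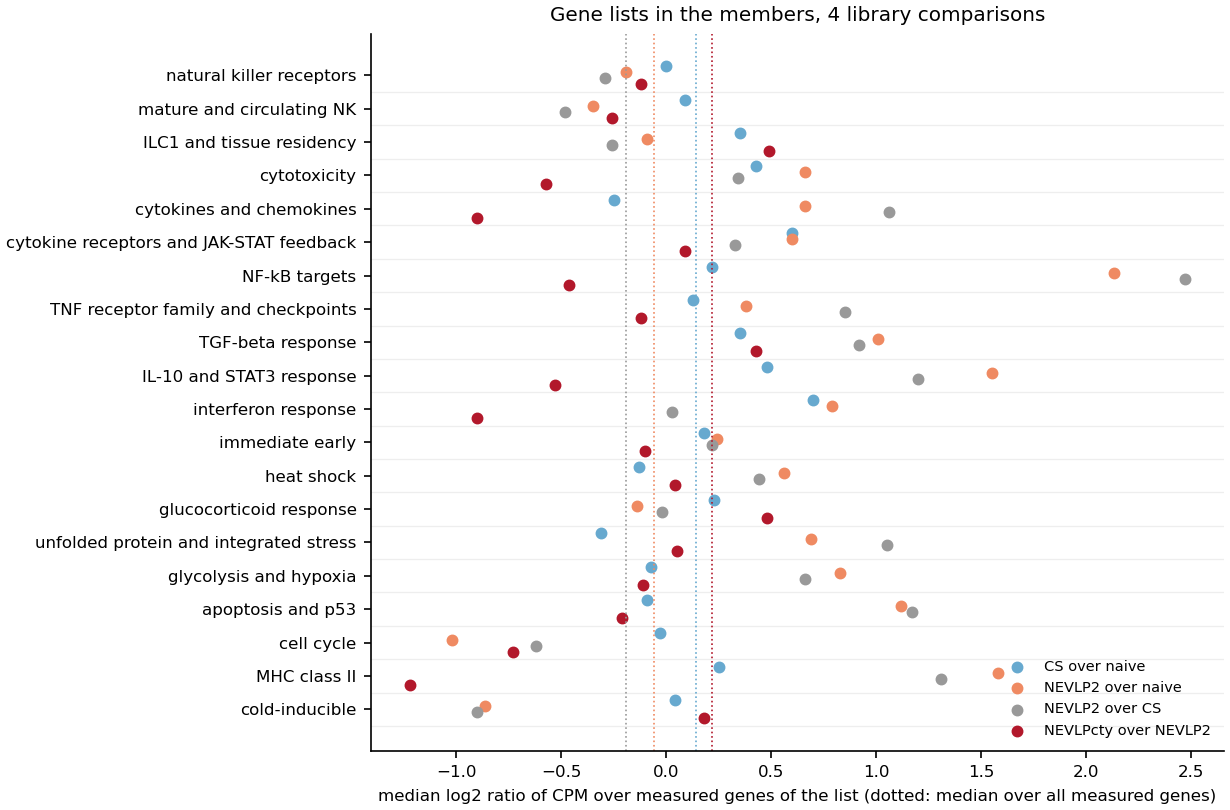
Median log2 ratio of CPM over the measured genes of 20 gene lists (rows) in the members, for the 4 library comparisons (colours); dotted lines give the median over all measured genes of each comparison. NF-kB targets stand farthest to the right, at 2.13 for NEVLP2 over naive and 2.47 for NEVLP2 over CS, and MHC class II genes farthest to the left for NEVLPcty over NEVLP2, at -1.22. Of the counts of the class II list gene Cd74, 48.3% in NEVLPcty and 25.5% in NEVLP2 came from 1 cell.

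The other lists are given as counts of genes at least 2-fold higher and lower, of those measured, beside 14.3 and 16.5% of all genes for NEVLP2 over naive, and counts near those shares say nothing about a list. In NEVLP2 over naive they were 8 and 2 of 26 for cytokine receptors and JAK-STAT feedback, 9 and 0 of 14 for IL-10 and STAT3 responses, 6 and 2 of 14 for cytokines and chemokines, 8 and 0 of 16 for the TGF-β response and 10 and 2 of 21 for the interferon response. Stress-related lists gave 6 and 1 of 20 for immediate early genes, 3 and 1 of 11 for heat shock, 3 and 1 of 12 for the unfolded protein response, 4 and 3 of 12 for glucocorticoid targets, 7 and 0 of 13 for apoptosis and p53 and 6 and 0 of 18 for glycolysis. Hk1, the hexokinase that starts glycolysis, was at 44.1 CPM in NEVLP2 and 14.3 in naive, and Fas, the death receptor, at 44.7 and 8.08. NK receptors gave 0 and 4 of 21, mature NK genes 0 and 3 of 13, costimulatory and checkpoint genes 3 and 1 of 10, ILC1 and residency genes 6 and 2 of 21 and cytotoxicity genes 3 and 0 of 14. Cell cycle genes gave 0 and 8 of 14, with Mki67 at 185.5 CPM in NEVLP2 and 203.2 in naive, and cold-inducible genes 0 and 1 of 2. Class II MHC genes gave 5 and 0 of 5, but Cd74, at 5409.9 CPM in NEVLP2 and 1634.2 in naive members, was at 15437.2 and 10461.5 CPM in the other kept cells. Of the Cd74 counts of members, 25.5% in NEVLP2 and 55.6% in naive came from 1 cell.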

How the data were processed

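The deposited files are 10x matrices of whole-number UMI counts per gene and barcode, 1 per library, with 22250 features; per the submitters' processing notes they come from Cell Ranger 2.1.1, per the file headers from 6.0.0, and for the build the sources used here give no name. Barcodes were filtered and members taken as the report opens, with no doublet caller in the main values; Scrublet in scanpy 1.11.5 at 0.8% per 1000 barcodes was an alternative. Between libraries, summed counts, scaled to equal totals (CPM), were compared as ratios with exact binomial intervals (scipy 1.17.1), and a ratio counted as called at 2-fold with at least 20 counts. Shares have exact Clopper-Pearson intervals, and the floor for 0 counts is 3 counts. Ly49-positive and Ly49-negative members were summed per library (8 sums) and tested with edgeR 4.0.16 (TMM, filterByExpr, quasi-likelihood, library as block, since both sums come from 1 liver), with adjusted p under 0.05 called; DESeq2 1.42.0 was an alternative. The fit was tested on simulated data.

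Named between libraries were genes with at least 50 counts, at most 20% of the higher library's counts from 1 cell and CPM at least that of the other kept cells there, the 12 highest by lower bound and the 12 lowest by upper bound; for the Ly49 contrast, the 12 largest and 12 smallest log2 folds that passed and went the same way in 4 libraries; and, besides, the defining and excluded genes, Il2ra, Xcl1, Ccl1, Cd7, Ly49 genes and members of the lists. The text names some of these, and a few are not reported here. Members, the 20 gene lists and 12 marker lists were chosen with earlier results of these data known. Of 386 listed genes, 15 are not among the features and were not analysed here.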

Additional observations from a re-analysis of the deposited data

How the results depend on the processing

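Over the alternatives tried, 1321 of 1787 log2 ratios between libraries moved by less than their counting interval, 462 moved further and 4 changed sign; of 889 log2 folds of the Ly49 contrast, 639 kept direction and call, 248 kept direction but not the call and 2 changed sign. The members' share of kept cells in NEVLPcty, NEVLP2 and CS was 3.23, 2.63 and 2.07% with at least 4 of the 7 genes, 3.42, 2.86 and 1.79% with at most 10% mitochondrial UMIs and 2.76, 2.28 and 1.60% with a stricter exclusion. It was 7.73% in naive when the definition was applied to thinned cells. Among members, T and B cells it was 76.3, 58.8, 39.7 and 30.0% in NEVLPcty, NEVLP2, CS and naive, and for members without Cd8a, Cd8b, Cd4 or Cd5 UMIs, a subset chosen after seeing the data, 1.10, 1.06, 0.620 and 0.666%. In that subset 19.4% of NEVLP2 and 19.4% of CS members were Ly49-positive. With at least 2 Ly49 UMIs the positive share was 13.9, 25.7 and 24.8% in NEVLPcty, NEVLP2 and CS.

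Counts of genes past 2-fold are written as higher and lower. With no minimum they were 1944 and 1118 for CS over naive, 2223 and 2763 for NEVLP2 over naive and 2320 and 1471 for NEVLPcty over NEVLP2, with 3513 lower for NEVLP2 over CS. With a minimum of 50 counts they were 236 and 79, 790 and 797, and 561 and 282 for the same 3 comparisons, with 878 lower for NEVLP2 over CS. At 1.5-fold they were 1491 and 582, 1997 and 2366, and 2273 and 868, with 1405 and 2663 for NEVLP2 over CS. Thinned members gave 270 higher for CS over naive, 710 and 559 for NEVLP2 over naive, 719 lower for NEVLP2 over CS and 635 and 262 for NEVLPcty over NEVLP2. Members without Cd8a, Cd8b, Cd4 or Cd5 UMIs gave 373 higher, 449 lower, 525 lower and 631 higher for CS over naive, NEVLP2 over naive, NEVLP2 over CS and NEVLPcty over NEVLP2. The stricter exclusion gave 276 lower and median-of-ratios scaling 623 higher for NEVLPcty over NEVLP2.

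Genes higher and lower with Ly49 were 135 and 103 at a mitochondrial maximum of 10%, 200 and 99 with DESeq2, 118 and 353 without TMM, 440 and 349 without the filter on low counts, and 74 and 53 in thinned members. Leaving out 1 library gave 135 and 108 without NEVLPcty, 102 and 72 without NEVLP2, 160 and 90 without CS and 158 and 138 without naive. Without the replicate block, here the library, which pairs the sums by liver, 0 and 0 passed edgeR's test (318 at an unadjusted p under 0.05; the smallest adjusted p was 0.0990), against 732 at an unadjusted p under 0.05 with DESeq2 and the block. The subset without Cd8a, Cd8b, Cd4 or Cd5 UMIs gave 0 and 0 too, with 286 at an unadjusted p under 0.05 among 2205 genes. There Xcl1 and Cd7 turned to 0.94 and 0.58 in the Ly49 contrast, and, for NEVLP2 over naive, Qpct to 0.57, Ncr1 to 0.39 and Pmepa1 to -0.02. Ccl1 turned to 0.51 for CS over naive in Ly49-positive members alone. The cause of these changes was not tested. Without the marked doublets, Ncf4 (1.31, edgeR adjusted p = 0.0530), Lgals1 (1.63, edgeR adjusted p = 0.114) and AABR07060872.1 (-0.91, edgeR adjusted p = 0.377) did not pass. No paired analysis was possible because each group is 1 library, for the comparisons between libraries.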
